A study of Rattus norvegicus with 6 samples.

Results

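The 6 S100 genes S100a8, S100a9, S100a4, S100a6, S100a10 and S100a11 were examined in rat pancreatic single cells, out of 32883 genes in the files, 17 of which carry an S100 name. They were taken by name from a list made with earlier results of these data known, and all 6 were present in the files. Their Ensembl identifiers were ENSRNOG00000011557, ENSRNOG00000011483, ENSRNOG00000011821, ENSRNOG00000011647, ENSRNOG00000023226 and ENSRNOG00000010105, in the same order. Over all cells kept, the 6 genes held 6641, 14303, 180020, 560294, 338598 and 202141 unique molecular identifiers (UMIs), each UMI standing for 1 captured transcript molecule. The study asked how ageing and a long high-fat high-fructose (HFHF) diet alter the pancreas. Male Wistar rats were used in 3 groups of 2. The young rats were 2 months old on a normal diet, the old rats were 20 months old after 18 months on the normal diet, and the HFHF-old rats were 20 months old after 18 months on the HFHF diet. Each library came from 1 rat, and cells were taken from an islet preparation made with collagenase P injected through the bile duct and a density gradient, so that cell shares describe that preparation and not the whole gland.

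S100 proteins are small calcium sensors with paired EF-hand motifs that bind target proteins when calcium rises. S100a8 and S100a9 form calprotectin, an abundant cytosolic protein of neutrophils and of some monocytes that sequesters zinc and manganese and, once released, acts as an alarmin on the receptors Tlr4 and Ager. S100a4 binds nonmuscle myosin and is known for motile leukocytes and fibroblasts, and S100a6, or calcyclin, binds the Cacybp protein and annexins. S100a10 is an unusual member that no longer responds to calcium and forms a tetramer with annexin A2, while S100a11 binds annexin A1 in membrane repair. In pancreatic tissue S100 genes are commonly read as signs of infiltrating myeloid cells, of activated fibroblasts and of ductal epithelium.

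The 6 libraries held 78024 barcodes with 77387928 to 166875258 UMIs each, and 75201 barcodes, 7381 to 17443 per rat, were kept. The median depth per kept cell ranged from 2537 UMIs in old replicate 2 to 9391.5 in HFHF-old replicate 1, and pairs of libraries shared 0.263 to 0.604% of the barcodes of the smaller one. Cells were grouped by clusters made without any S100 gene, so that the 6 genes did not define the classes in which they were measured, and 60531 barcodes fell into clusters with a cell type name. Names end in "-like" because they rest on marker genes. The neutrophil-like cluster, led by Camp, Mmp8, Ngp and Retnlg, had 17 of its 18 markers raised. The ductal-like cluster had 11 of 15 ductal markers raised and was led by Cftr, Spp1 and Sctr but also by Fabp1, Apoa1 and Rbp2, which are genes of absorptive intestinal cells. A cluster of 4575 cells led by Il1rl1 and Gata3 carried T and mast cell markers together and was left without a cell type name, so it is called the Il1rl1 Gata3 cluster. It was picked for separate tests after its values were seen, while the other unnamed clusters were not tested. Levels are given as CPM, the UMIs of a gene in 1000000 UMIs of all genes, over the cells of a class in 1 rat. Unless stated, a class was measured only in rats that had at least 10 of its cells. These counts come from transcript ends and do not scale with transcript length. S100a11 has 5 pseudogenes and 2 like-named genes in the RefSeq gene table, and S100a10 has 1 pseudogene, so reads from near copies could be lost or shared for both.

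The start regions of 4 of the 6 genes were held in the RefSeq promoter table (GRCr8, another build than that of the count files), each with 250 bases before and 50 after the annotated start. They are shown so that the start regions of the neutrophil gene S100a9 and of 3 members found in many classes can be compared. Capitals mark the matches to the searched motifs. S100a9 lies at chr2:178490573-178490872 on the minus strand, and S100a4 (chr2:178388279-178388578), S100a6 (chr2:178398287-178398586) and S100a11 (chr2:181874882-181875181) lie on the plus strand.
S100a9: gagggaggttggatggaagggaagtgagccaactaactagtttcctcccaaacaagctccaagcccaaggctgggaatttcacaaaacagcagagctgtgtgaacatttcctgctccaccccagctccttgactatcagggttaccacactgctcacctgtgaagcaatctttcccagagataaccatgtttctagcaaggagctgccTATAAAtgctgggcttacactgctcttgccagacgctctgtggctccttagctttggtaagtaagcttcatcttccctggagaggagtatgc
S100a4: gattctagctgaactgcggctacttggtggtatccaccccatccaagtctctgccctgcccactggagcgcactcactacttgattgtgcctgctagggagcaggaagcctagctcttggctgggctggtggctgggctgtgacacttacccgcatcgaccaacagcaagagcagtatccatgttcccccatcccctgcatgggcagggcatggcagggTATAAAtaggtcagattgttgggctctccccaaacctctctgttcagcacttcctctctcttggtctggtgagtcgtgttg
S100a6: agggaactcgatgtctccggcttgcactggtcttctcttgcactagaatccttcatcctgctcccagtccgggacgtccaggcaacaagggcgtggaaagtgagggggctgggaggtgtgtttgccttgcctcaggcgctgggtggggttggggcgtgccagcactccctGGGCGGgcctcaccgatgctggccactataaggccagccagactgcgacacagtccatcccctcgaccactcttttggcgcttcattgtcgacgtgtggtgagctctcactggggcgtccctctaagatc
S100a11: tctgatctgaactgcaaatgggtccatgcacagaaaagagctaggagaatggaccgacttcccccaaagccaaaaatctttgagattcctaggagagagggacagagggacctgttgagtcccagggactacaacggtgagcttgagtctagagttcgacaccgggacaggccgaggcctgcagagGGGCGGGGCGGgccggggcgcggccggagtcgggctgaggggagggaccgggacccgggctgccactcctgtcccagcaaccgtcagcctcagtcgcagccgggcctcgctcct
Both strands were searched for the TATA box letters TATAAA, which 14.2% of 33469 promoters of the same length held. GGGCGG, the GC box, was held by 33.1% and TTNNGCAA, the C/EBP motif, by 10.6%. TATAAA stood 42 bases before the start of S100a9 and 31 bases before that of S100a4, and was absent from the other two windows. GGGCGG stood 80 bases before the start of S100a6 and, as 2 overlapping matches, 64 and 59 bases before that of S100a11. TTNNGCAA was in none of the 4 windows. The GC content was 50% for S100a9, 56.3% for S100a4, 61.3% for S100a6 and 63.0% for S100a11. In the list of RefSeq genes S100a8 and S100a9 are direct neighbours on chromosome 2, and S100a5 is the only listed gene between S100a4 and S100a6.

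S100a8 and S100a9 were almost entirely carried by 39 neutrophil-like cells, 0.0519% of all cells (exact binomial 95% interval 0.0369 to 0.0709%). These cells held 93.6% of all S100a8 UMIs and 92.4% of all S100a9 UMIs. The young rats had 9 and 0 of them, the old rats 6 and 5, and the HFHF-old rats 18 and 1, replicate 1 first. The count of 0 among 10283 cells of young replicate 2 allows a share of up to 0.0292% by the limit of 3 counts (exact upper bound 0.0359%), and the other rats lay between 0.0085% and 0.1501%. Intervals and limits cover counting error only.

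In the neutrophil-like cells S100a8 stood at 35817 CPM in young replicate 1, 32912 in old replicate 1, 78480 in old replicate 2 and 34765 in HFHF-old replicate 1. S100a9 was higher than S100a8 in each of these rats, with 55075, 103755, 150895 and 89261 CPM in the same order. The single neutrophil-like cell of HFHF-old replicate 2 held 1398 S100a8 and 2014 S100a9 UMIs, or 14.5 and 20.9% of its UMIs. In old replicate 2 a single cell of 9574 UMIs held 1006 of 1074 S100a8 and 1791 of 2065 S100a9 UMIs, and in its 4 other cells the genes made up 1.65 and 6.67% of UMIs. Both genes were therefore at a level of percents of all transcripts in every rat that had such cells. Only HFHF-old replicate 1 had the 10 cells required here, so no group comparison of these levels was made.

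The 39 cells differed widely among themselves. S100a8 took from 0 to 14.5% of the UMIs of a cell with a median of 2.18%, and S100a9 from 0.035 to 24.3% with a median of 6.34%. At least 1 UMI of S100a8 was found in 37 cells and of S100a9 in all 39. The ratio of S100a8 to S100a9 UMIs was 0.65 in young replicate 1, 0.317 and 0.52 in the old replicates, and 0.389 and 0.694 in the HFHF-old replicates. In 1 cell of young replicate 1 the order was turned, with 10.478% of UMIs from S100a8 and 0.683% from S100a9. Pooled, the 9 cells with 2 or more UMIs of Camp, which encodes cathelicidin of the secondary granules, held S100a8 at 9.32% and S100a9 at 17.8% of their UMIs, against 1.76 and 5.04% in the 30 others. Most UMIs of the 9 came from 4 deep cells with 8115 to 10947 UMIs each, and the cell with the turned order was among the 9. Single cells overlapped, since 1 with a single Camp UMI held S100a8 at 7.581% and S100a9 at 18.395%.

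The other 4 genes split in the same cells. S100a11 was abundant, with 1467 CPM in young replicate 1, 3622 and 2192 in the old replicates and 1997 in HFHF-old replicate 1, and 37 of 39 cells had a UMI of it. S100a4, S100a6 and S100a10 were rare, with a UMI in 3, 9 and 5 of the 39 cells. Over the 4 rats with 5 or more cells their medians were 14.1 (0 to 47.3), 306.5 (0 to 1041) and 52.9 CPM (0 to 284). S100a6 was highest in young replicate 1, where 3 of 9 cells held a UMI of it. The RNA expected from free transcripts in HFHF-old replicate 1, by the measure described for free RNA, was 87.1, 231 and 205 CPM for these 3 genes, against 28.1, 295 and 42.2 observed. S100a4 and S100a10 were thus no higher in its neutrophil-like cells than that background. Of its 21 S100a6 UMIs 17 lay in 1 cell that held 0 S100a8 and 1 S100a9 UMI, and without that cell S100a6 stood at 58.6, also below the estimate. In the 12 cells of this rat that a gate on marker genes took as neutrophils it stood at 57.3.

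**Figure D1:**
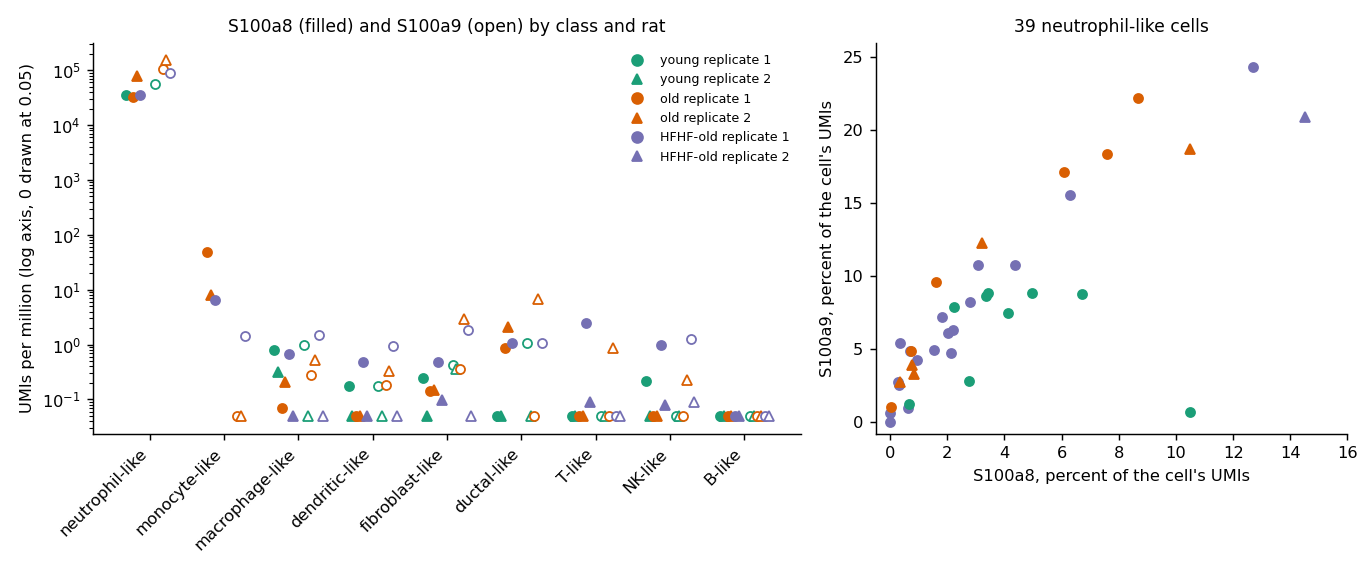
Left, S100a8 (filled) and S100a9 (open) in CPM on a log axis, by class and rat, with zeros drawn at 0.05; neutrophil-like sums are shown for rats with 5 or more cells and other classes for rats with 10 or more. Right, S100a8 against S100a9 as percent of UMIs in each of the 39 neutrophil-like cells. Neutrophil-like values lie between 32912 and 150895 while no other plotted sum passes 48.5.

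Outside the neutrophil-like class both genes were at trace level. A UMI of S100a8 was found in 182 of 75162 cells (0.2421%) and of S100a9 in 313. Endocrine-like, acinar-like, B-like and T-like cells, which should lack both genes, gave the background. Over 11457 such cells with a median of 7276 UMIs, S100a8 stood at 0.691 CPM (exact Poisson 95% interval 0.559 to 0.845) and S100a9 at 1.89 (1.66 to 2.13). At least 1 UMI was present in 0.253% of them for S100a8 and 0.471% for S100a9. Of these background UMIs 2 acinar-like barcodes held 68 of 95 for S100a8 and 205 of 259 for S100a9. Without both barcodes the levels were 0.197 and 0.393 CPM, and without old replicate 2 they were 0.354 and 1.03. The share of cells with an S100a8 UMI was highest in HFHF-old replicate 1 both outside the neutrophil-like class (0.8102%) and in the background cells (1.46%). In the other rats it ran from 0.0939 to 0.1709% and from 0.0427 to 0.235%. The outside share includes the background cells, and it was above the background share in 4 rats and below it in young replicate 2 and HFHF-old replicate 1. By rat the background of S100a8 was 0.0641 and 0.218 in the young, 0.0662 and 1.89 in the old, and 1.14 and 0.0791 CPM in the HFHF-old replicates. The value of 1.89 in old replicate 2 came from a single barcode with 57 S100a8 UMIs.

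Free RNA was also estimated from genes that only secretory cells make. Their share in a class over their share in the whole library, times the level of an S100 gene in the library, gave its expected free level. The library level includes the cells that make the gene, so this estimate can be too high, and it often passed the observed level. A level that does not pass it therefore does not show that a class lacks the gene. Over the rats this estimate ranged from 0.015 to 2.58 CPM for S100a8 in macrophage-like cells, where 0 to 0.799 was observed. With cells gated by markers the macrophage median was 0.906, with 7.42 in young replicate 1, where 165 of 171 S100a8 UMIs lay in 1 barcode of the neutrophil-like cluster, and 132 in HFHF-old replicate 2, where 1 monocyte-like barcode held all 40. In dendritic-like, fibroblast-like, ductal-like and NK-like cells S100a8 did not exceed the expected level in any rat, and in macrophage-like cells it did in 1 of 6. For S100a9 the observed level passed the expected one in 0 of 6 rats for macrophage-like, dendritic-like and NK-like cells, in 2 of 6 for fibroblast-like and in 1 of 5 for ductal-like cells. B-like cells held no UMI of either gene in any rat.

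Monocyte-like cells, sampled in 3 rats, stood between. S100a8 was at 48.5 CPM in old replicate 1, 8.01 in old replicate 2 and 6.37 in HFHF-old replicate 1, above the expected free level in all 3. These levels rest on 12, 1 and 9 S100a8 UMIs. S100a9 was listed at 0 in both old replicates and at 1.42 in HFHF-old replicate 1. Of the 2 monocyte-like clusters, that led by Fcnb (61 cells) held S100a8 at 53.4, 8.01 and 38.3 CPM in these rats. The cells of this class numbered 19, 18 and 120, and 101 of the 120 lay in the other cluster.

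Summed over all cells of a rat, S100a8 stood at 7.39 and 0.161 CPM in the young replicates, 7.78 and 15.9 in the old and 19.2 and 13.5 in the HFHF-old. S100a9 stood at 11.3 and 0.363, 24.1 and 33.3, and 49.9 and 19.0. The lowest rat for both was young replicate 2, in which no neutrophil-like cell was found. The neutrophil-like cells held 96.2, 0, 96.5, 87.8, 94.3 and 95.8% of the S100a8 UMIs of the 6 rats in this order, and in HFHF-old replicate 2 a single cell made up the last of these shares. In such sums a change in cell number and a change in level per cell cannot be told apart. Neither gene passed the test between groups (edgeR quasi-likelihood, adjusted p = 0.972 and 0.995 for HFHF-old against old, 1.0 for both for old against young), where 0.0% of 17925 genes were called in either comparison. S100a8 and S100a9 overlapped between the HFHF-old and old rats, while both were above in both old rats against the young, as were 9.76% of genes. Of the other 4 members, 0 separated the HFHF-old from the old rats (19.7% of genes were above and 15.5% below). Against the young, 2 of these 4 were above in both old rats (9.76%) and 0 below (10.7%).

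S100a4 was highest in monocyte-like cells and in the Il1rl1 Gata3 cluster. Its median over rats was 2256 CPM in monocyte-like cells (1942 to 3382, n = 3) and 1854 in the Il1rl1 Gata3 cluster (1193 to 2383, n = 6). T-like cells followed at 568 (252 to 1400), dendritic-like cells at 505 (365 to 691) and NK-like cells at 280 (136 to 734). The gene was lower in fibroblast-like cells at 116 (52.1 to 199), macrophage-like cells at 64.9 (48.0 to 397), ductal-like cells at 60.7 (17.1 to 87.4, n = 5) and B-like cells at 16.9 (0 to 45.3). In ductal-like cells the observed level passed the expected free level in 1 of 5 rats only, and in B-like cells in 3 of 6. With cells gated by marker genes instead of clusters, T-like cells stood at 1245, ductal-like cells at 9.46 and B-like cells at 9.75. By that gate fibroblast-like cells (104.6) were above macrophage-like cells (192.9) in 1 of 6 rats only. The gate took other cells than the clusters did. Of 4610 cells gated as T, 1806 lay in the Il1rl1 Gata3 cluster, and of 282 gated as ductal, 76 were endocrine-like. The part of these cells in the gated levels was not tested. In fibroblast-like cells S100a4 stood at 19.3 to 162 CPM in the cluster led by Gfpt2. It stood at 121 to 277 in that led by Clec3b and Pi16 and at 53.3 to 231 in that led by Mgp.

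Macrophage-like cells varied widely in S100a4 between rats, with 48.0 and 74.1 CPM in the young, 203 and 55.8 in the old and 397 and 48.4 in the HFHF-old replicates. The highest value belonged to HFHF-old replicate 1. In that rat 1851 of 3510 macrophage-like cells lay in 1 cluster led by Asgr2, Gpnmb and Pdpn, where S100a4 stood at 418, and this cluster had fewer than 10 cells in every other rat. A cluster led by the proliferation gene Mki67 (538 cells in 5 rats) held S100a4 at 148 to 757 CPM.

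S100a6 was highest in fibroblast-like cells among the classes sampled in all 6 rats. Its median was 2433 CPM in fibroblast-like cells (2163 to 3735, n = 6), 2025 in monocyte-like cells (1071 to 3254, n = 3) and 1629 in NK-like cells (1136 to 2009, n = 6). The Il1rl1 Gata3 cluster stood at 1054, T-like cells at 598, dendritic-like cells at 403, ductal-like cells at 262, macrophage-like cells at 96.6 and B-like cells at 80.4. NK-like cells were above T-like cells in all 6 rats, by 1.5 ± 0.54 on the log2 scale (SD, n = 6). With cells gated by marker genes this held in 5 of 6 rats, by 0.65 ± 0.55. In macrophage-like cells the observed level passed the expected free level in 3 of 6 rats only, with an expected median of 99.1 CPM. With the marker gate T-like cells stood at 939 and B-like cells at 12.98. By that gate ductal-like cells (101.2) were above macrophage-like cells (139.9) in 1 of 5 rats only. Its T cells included 1806 of the Il1rl1 Gata3 cluster and its ductal cells 76 endocrine-like ones, and their part was not tested. After free RNA was subtracted ductal-like cells stood at 46.8, macrophage-like cells at 11.6 and B-like cells at 5.56.

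S100a10 was highest in monocyte-like cells at 2155 CPM (1693 to 2837, n = 3) and low in B-like cells at 105 (36.0 to 341, n = 6) and in the neutrophil-like cells described. In the other classes named here its medians ran from 517 in the Il1rl1 Gata3 cluster to 1028 in dendritic-like cells (609 to 1252). Fibroblast-like cells stood at 889, NK-like at 645, ductal-like at 627, macrophage-like at 599 and T-like at 540. T-like cells were above B-like cells in 6 of 6 rats, by 2.46 ± 1.21 on the log2 scale.

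S100a11 was highest in dendritic-like cells among the classes sampled in all rats, at 1650 CPM (1308 to 1911), with 1997 in the neutrophil-like cells of HFHF-old replicate 1. Ductal-like cells followed at 942 (313 to 1107, n = 5), monocyte-like at 720, fibroblast-like at 528, NK-like at 376, T-like at 204, the Il1rl1 Gata3 cluster at 171, macrophage-like at 152 and B-like at 127. With the marker gate ductal-like cells stood at 626.7 and B-like cells at 76.2. Of the 282 cells gated as ductal 76 were endocrine-like, and their part was not tested. Dendritic-like cells were above ductal-like cells in 5 of 5 rats and NK-like above T-like cells in 6 of 6, the latter by 1.10 ± 0.23 on the log2 scale.

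The test used could not separate neighbours in these orders. Over 48 neighbouring pairs of classes the exact sign-flip permutation test over rats, two-sided, gave 0 pairs at an adjusted p under 0.05, and the smallest adjusted p was 0.5. Only 25 pairs had all 6 rats, where the smallest p it can give is 0.03125, and even with every pair at its smallest p no adjusted p could have gone below 0.06, so the test was void. The p of 0.03125 was reached by 3 pairs, S100a6 and S100a11 in NK-like over T-like cells and S100a10 in T-like over B-like cells. In 9 of the 40 pairs with 3 or more rats the class of higher median was the higher one in every rat.

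**Figure D2:**
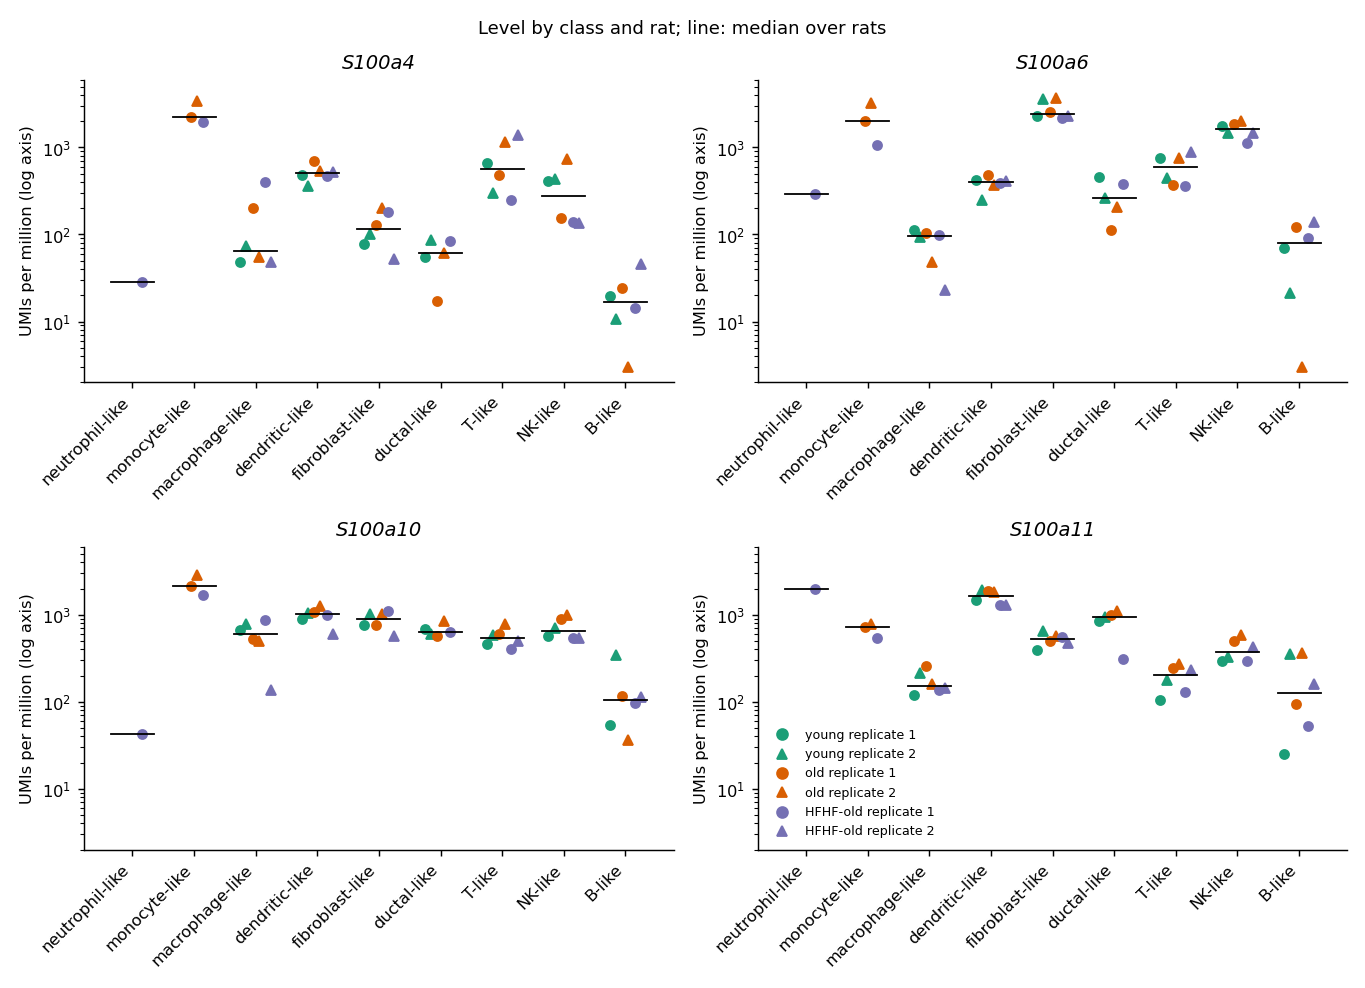
Levels of S100a4, S100a6, S100a10 and S100a11 in CPM on a log axis by class, 1 point per rat with 10 or more cells, with the median over rats as a line and values of 3 or less drawn at 3. S100a6 is highest in fibroblast-like cells (median 2433) and S100a11 in dendritic-like cells (median 1650) among the classes present in all 6 rats.

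The 2 largest dendritic-like clusters differed in S100a4 and S100a6. Of 15 dendritic markers 7 were raised in the Clec9a-led cluster, and 3 were among its leading genes. In the RT1-Bb-led cluster 5 were raised and 0 were leading, so its name is less secure. In the cluster led by Slpi, Clec9a and Xcr1 (1016 cells), genes of cross-presenting dendritic cells, S100a4 stood at 12.9 and 2.52 CPM in the young, 30.1 and 32.5 in the old and 64.1 and 16.1 in the HFHF-old replicates. In the cluster led by RT1-Bb and Havcr2 (825 cells) it stood at 873 and 724, 939 and 1670, and 979 and 1190. The lowest rat of the second cluster was above the highest of the first. S100a6 showed the same order, with 8.83 to 42.8 against 494 to 1290 CPM. S100a10 and S100a11 overlapped between the clusters, with 537 to 1250 against 838 to 1760 for S100a10 and 1400 to 2160 against 1340 to 2240 for S100a11. Among the Clec9a-led cells, 2 smaller clusters led by the same genes held S100a4 at 232 to 392 and 233 to 373 CPM. These levels lay between those of the larger clusters, and S100a6 stood at 113 to 845 and 216 to 318. The T cell gene Cd3e stood at 99.041 and 90.843 CPM over all their cells, against 0.955 in the cluster of 1016 cells. Median depth was 7736 and 16452 UMIs per cell against 8977. The part of T cell RNA, depth and doublets in these levels was not tested. No test was made, since the clusters come from the same cells.

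**Figure D3:**
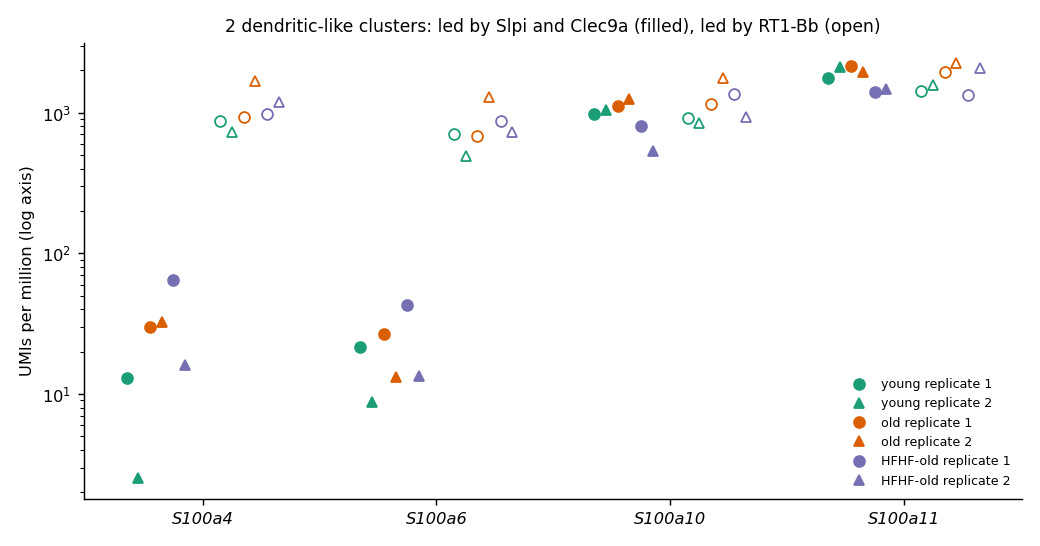
The 4 genes in CPM on a log axis in the dendritic-like cluster led by Slpi and Clec9a (filled) and in that led by RT1-Bb (open), 1 point per rat. S100a4 and S100a6 do not overlap between the clusters, while S100a10 and S100a11 do.

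Between the groups no member was called in any class. A call needed an edgeR quasi-likelihood p adjusted by Benjamini-Hochberg under 0.05 together with a fold change of more than 1.5 in either direction. For HFHF-old against old, 0 of 34 tests of members over 8 class fits passed (smallest adjusted p 0.357). An unadjusted p under 0.05 was reached by 8 of the 34, and by 8.12% of all tests in these fits. Of the 34 fitted changes 26 were negative, where the median over all genes of a class lay between -0.033 and 0.035. DESeq2 on the same sums called 1 of the members, S100a10 in NK-like cells (adjusted p = 0.00494), where it called 117 of 11393 genes. For old against young, 0 of 29 tests over 7 fits passed (smallest adjusted p 0.432, 0 called by DESeq2). An unadjusted p under 0.05 was reached by 4 of the 29, and by 5.82% of all tests in these fits. Of the 29 fitted changes 22 were positive, where the median over all genes of a class lay between -0.031 and 0.03. The classes share the same rats, so the signs of a member over classes are not independent. The fitted change of S100a11 was negative in 8 of 8 class fits for HFHF-old against old and positive in 7 of 7 for old against young. Of 3881 genes tested in all 8 fits 16.9% were negative in each, and of 5512 tested in all 7 fits 7.62% were positive in each. The ductal-like and monocyte-like fits had 1 HFHF-old rat, and in its ductal-like cells S100a11 did not pass the level expected from free RNA. Both comparisons share the same old rats, so these directions are not independent of each other. The percentages of all genes called in these fits were 0.0 in macrophage-like, dendritic-like, NK-like and B-like cells in both comparisons, 0.0 and 0.0144 in fibroblast-like, 0.0271 and 0.0 in ductal-like and 0.0 and 0.109 in T-like cells (HFHF-old against old first), and 1.18 in monocyte-like cells. S100a8 and S100a9 passed the filter on low counts in 1 and 2 of these fits for HFHF-old against old and in 0 and 2 for old against young. The other 4 members passed in all of them, except S100a4 in B-like cells.

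In NK-like cells all 4 members were lower in both HFHF-old rats than in both old rats, as were 17.9% of all genes tested there, while 33.3% of genes were higher in both. S100a10 stood at 577 and 714 CPM in the young, 886 and 984 in the old and 538 and 538 in the HFHF-old replicates. S100a11 stood at 296 and 328, 506 and 585, and 296 and 423. S100a6 stood at 1787 and 1471, 1840 and 2009, and 1136 and 1457. The old rats were the highest of the 6 for each of these 3 genes. The log2 fold changes of HFHF-old against old were -0.96 ± 0.25 for S100a10, -0.76 ± 0.29 for S100a11 and -0.73 ± 0.28 for S100a6 (SE; edgeR, adjusted p = 0.357 for each). S100a4 rested on 1 rat, with 407 and 428, 153 and 734, and 140 and 136 CPM, and a log2 fold change of -1.92 ± 0.70 (adjusted p = 0.357) that became -0.17 without old replicate 2. For old against young 3 of the 4 members did not overlap, against 10% of all genes in that direction and 21.7% in the other, and S100a11 had a log2 fold change of 0.93 ± 0.29 (adjusted p = 0.874).

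The NK-like cells of the groups were not alike in other respects. In HFHF-old replicate 2, 7175 of 8167 NK-like cells lay in a cluster led by Gzmk, against 3 of 859 in HFHF-old replicate 1. In the other NK-like cluster alone, led by Nkg7 and Prf1, S100a10 stood at 898 and 1030 in the old and 538 and 572 in the HFHF-old replicates, and S100a11 at 522 and 629 against 295 and 502. S100a4 overlapped there, with 161 and 859 against 140 and 227, and S100a6 stood at 1890 and 2130 against 1140 and 1890, no longer apart at 3 digits. In the Gzmk-led cluster HFHF-old replicate 2 lay within the range of the old replicates for S100a11 (416 against 348 and 489), S100a6 (1420 against 1320 and 1740) and S100a4 (128 against 73.0 and 461), and below both for S100a10 (535 against 759 and 895). The summed level of 14 NK markers was 9120 and 10200 CPM in the old and 7590 and 8080 in the HFHF-old replicates. Of other cell types, 16 of 16 macrophage markers were detected in NK-like cells, summing to 407 and 194 in the old and 1170 and 8.62 in the HFHF-old replicates, and 12 of 13 acinar markers, without Rnase1, summed to 3280 and 1810 against 11000 and 161. Of the S100a4 level, 12.3 and 0.925% in the old and 33.3 and 21.8% in the HFHF-old replicates were expected as free RNA. Median depth was 8589 and 3480.5 UMIs per cell against 7021 and 8806. The part of cluster makeup, depth and free RNA in the differences was not tested.

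The Il1rl1 Gata3 cluster, picked after its values were seen, had the smallest adjusted p-values of the members. Because of that choice its p-values and group orders are descriptions only. S100a11 stood at 136 and 166 CPM in the young, 270 and 371 in the old and 175 and 156 in the HFHF-old replicates. S100a10 stood at 367 and 511, 610 and 906, and 523 and 318. Both old rats were above all 4 others for both genes. S100a11 had a log2 fold change of 1.23 ± 0.29 in old against young (edgeR, adjusted p = 0.159) and of -1.18 ± 0.29 in HFHF-old against old (adjusted p = 0.314). S100a10 had a log2 fold change of 0.94 ± 0.38 (adjusted p = 0.398) and -1.09 ± 0.38 (adjusted p = 0.315). S100a6 had a log2 fold change of 0.90 ± 0.29 in old against young (adjusted p = 0.294), with 1012 and 630 CPM in the young, 1585 and 1227 in the old and 993 and 1095 in the HFHF-old replicates. All 4 members were higher in both old than both young rats, as were 13.9% of all genes tested, and all 4 were lower in both HFHF-old than both old rats, as were 16%. No member was above in both HFHF-old rats (36.4% of genes) or below in both old rats against the young (27.2%). In this cluster 0.127% of genes were called in old against young and 0.0% in HFHF-old against old. Its 13 T cell markers, all detected, summed to 1040 and 735 CPM in the young, 2850 and 3590 in the old and 3190 and 1920 in the HFHF-old replicates, and its mast cell markers reached 1120 in HFHF-old replicate 2 against 48.2 to 283 in the other rats. The part of this makeup in the differences was not tested.

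T-like cells, of which young replicate 2 had 14 and HFHF-old replicate 1 had 48, placed the groups in the same order for 2 members. S100a11 stood at 104 and 177 CPM in the young, 248 and 271 in the old and 130 and 232 in the HFHF-old replicates. S100a10 stood at 465 and 583, 595 and 774, and 401 and 497. S100a11 had a log2 fold change of 1.08 ± 0.38 in old against young (edgeR, adjusted p = 0.432) and S100a10 one of -0.69 ± 0.29 in HFHF-old against old (adjusted p = 0.514). In each comparison 2 of 4 members did not overlap, against 15.8% of genes above in old and 19.7% below in HFHF-old. No member went the other way, as 22.9% of genes did in old and 29% in HFHF-old rats. S100a4 and S100a6 differed more between rats of one group than between groups, for example 252 and 1400 CPM for S100a4 in the HFHF-old replicates. The T markers of this class summed to 3090 and 2160 in the young against 4250 to 4900 in the other rats, and NK markers to 2890 and 5480 against 2020 to 2290, and the part of this was not tested.

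In dendritic-like cells S100a11 was lower in both HFHF-old rats, with 1310 and 1308 CPM, than in the old rats with 1864 and 1834 and the young rats with 1466 and 1911. The log2 fold change of HFHF-old against old was -0.70 ± 0.28 (edgeR, adjusted p = 0.895), and 3 of 4 members lay below the old rats against 9.92% of genes, and none above (29.6%). Within the cluster led by Slpi and Clec9a the values were 2160 and 1950 in the old and 1400 and 1480 in the HFHF-old replicates, and within that led by RT1-Bb they overlapped at 1960 and 2240 against 1340 and 2090. S100a4 had a log2 fold change of 0.70 ± 0.26 in old against young (adjusted p = 0.998), from 489 and 365 to 691 and 540 CPM. Here 2 of 4 members lay above the young rats, against 6.68% of genes, and none below (28.4%). S100a4 was also above the young in both old rats within each of the 2 largest clusters, at the levels given above. The RT1-Bb-led cluster held 175 of 555 and 32 of 144 dendritic-like cells of the young. In the old replicates it held 257 of 390 and 159 of 867, and the part of this makeup was not tested. Macrophage markers, 16 of 16 detected, summed to 2000 and 1440 in the old and 4660 and 539 in the HFHF-old replicates, and their part was not tested.

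**Figure D4:**
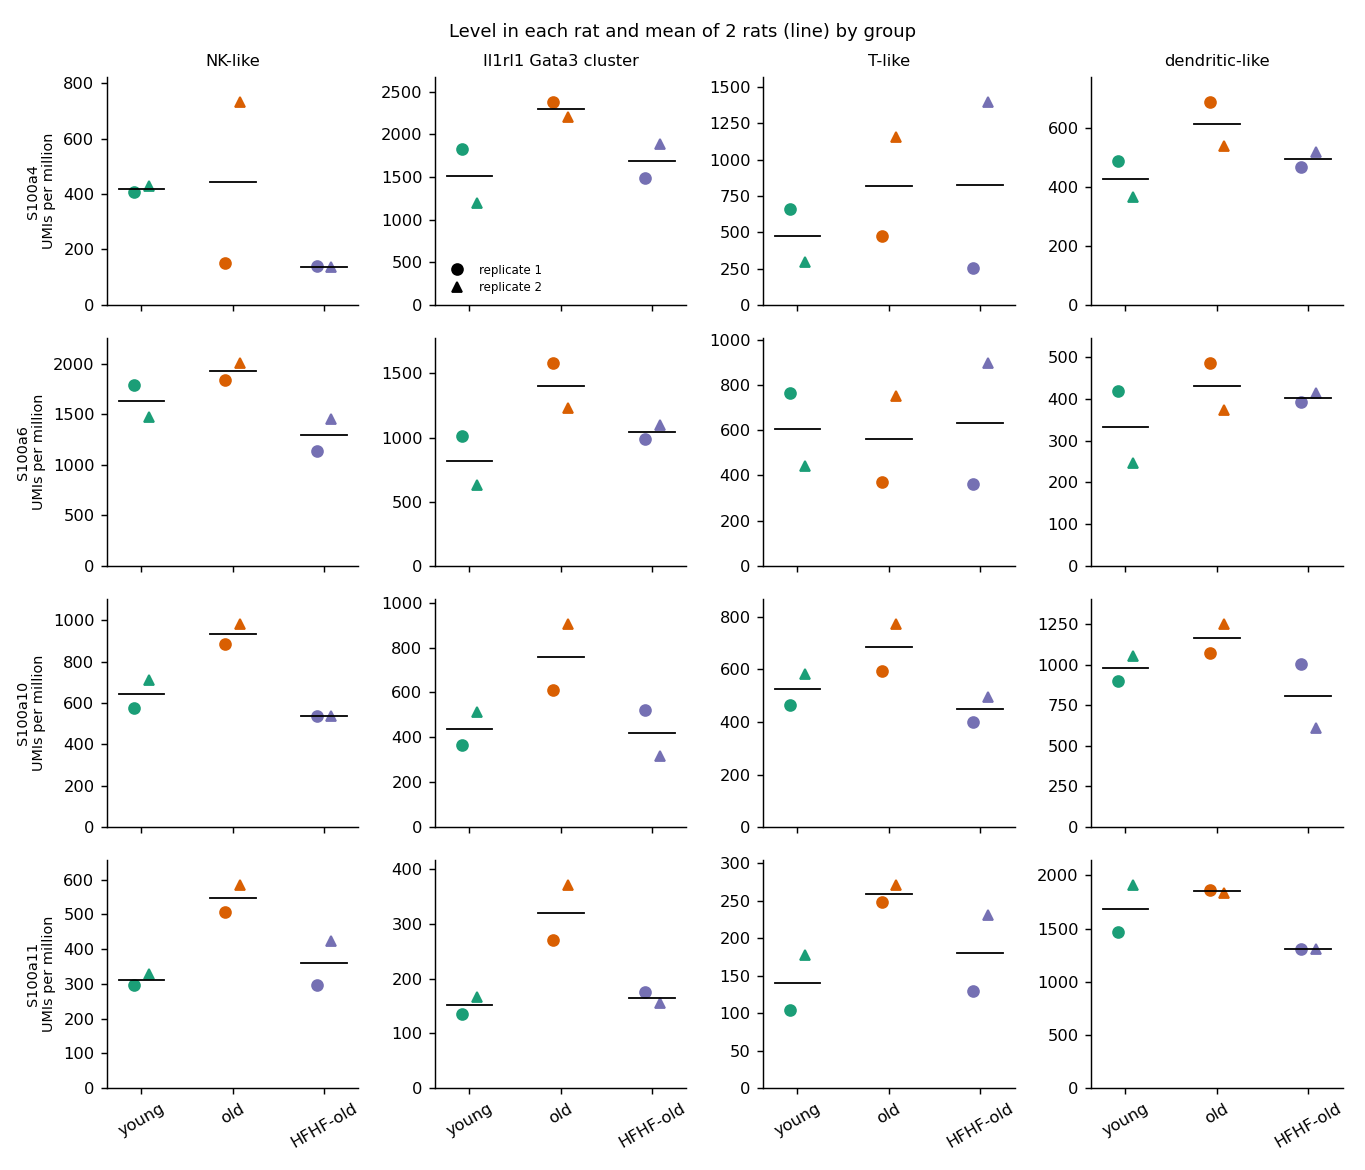
Level of 4 members in CPM in each rat (circles replicate 1, triangles replicate 2) with the mean of 2 rats as a line, in NK-like cells, the Il1rl1 Gata3 cluster, T-like and dendritic-like cells. For S100a10 and S100a11 the mean of the old rats is the highest of the 3 groups in all 4 panels. None of the differences passed the edgeR test, while DESeq2 called S100a10 in NK-like cells for HFHF-old against old, and S100a11 in both comparisons and S100a6 in old against young in the Il1rl1 Gata3 cluster. That cluster was picked after its values were seen.

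Ductal-like cells could be compared with 1 HFHF-old rat only, since HFHF-old replicate 2 had 9 of them. S100a6 stood at 457 and 262 CPM in the young, 113 and 209 in the old and 378 in HFHF-old replicate 1. S100a11 stood at 843 and 942, 988 and 1107, and 313. In HFHF-old against old S100a6 had a log2 fold change of 1.52 ± 0.59 (edgeR, adjusted p = 0.386) and S100a11 one of -1.44 ± 0.58 (adjusted p = 0.391). In old against young 1 member of 4 lay above (17.2% of genes did) and 1 below (12.3%), the latter being S100a6 with -1.19 ± 0.50 (adjusted p = 1.0).

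The ductal-like cells also differed between rats in intestinal genes. In the ductal-like cells Fabp1, a fatty acid binding protein of absorptive cells, stood at 2180, 0, 0, 2590 and 7990 CPM in the young rats, the old rats and HFHF-old replicate 1, in this order. Apoa1 followed it with 1920, 0, 0.855, 1660 and 4500, while the ductal channel gene Cftr stood at 2470, 727, 1770, 826 and 879. Cells with 2 or more UMIs of Fabp1, Apoa1 and Rbp2 together numbered 38, namely 14 in young replicate 1, 8 in old replicate 2 and 16 in HFHF-old replicate 1. These cells held S100a6 at 746 and S100a11 at 140 CPM, against 194 and 990 in the 882 other ductal-like cells. Without them S100a6 was 361 and 262 in the young, 113 and 174 in the old and 173 in HFHF-old replicate 1, so that the last value lay within the range of the old rats. S100a11 without them was still lowest in HFHF-old replicate 1, at 364 against 988 and 1210 in the old. In that rat, however, 94.8% of the RNA of the ductal-like class was estimated as free RNA, against 19.2 to 24.8% in the other rats, and the observed S100a11 level did not pass the expected free level of 328 CPM. Leaving out these cells was added as a setting once the values were known.

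In macrophage-like cells S100a11 stood at 119 and 216 CPM in the young, 255 and 162 in the old and 138 and 143 in the HFHF-old replicates, a log2 fold change of -0.72 ± 0.36 in HFHF-old against old (edgeR, adjusted p = 0.755). The cells of HFHF-old replicate 1 lay mostly in clusters nearly absent from the old rats, with 1851 and 1297 of 3510 in those led by Asgr2 and Gpnmb and by Trpc6 and Oasl, which held 5 and 3 and 2 and 3 cells of the old replicates. S100a11 was the only one of 4 members to lie below in both HFHF-old rats, against 14% of genes, and none was above in both (20.6%). S100a10 was lower in both old rats, at 532 and 506, than in both young rats, at 666 and 776, against 27.6% of genes in that direction and 19.9% in the other, where no member was (-0.42 ± 0.74, adjusted p = 0.921). The cells of the 2 groups lay mostly in different clusters, since the clusters led by Hba-a2 and Cfd and by RT1-Bb and Cxcl13 held 1294 and 2784 cells of the old rats, of 1785 and 3288, and 223 of 8677 of the young. S100a10 overlapped within both, at 724 and 367 in the young against 639 and 656 in the old and at 298 and 412 against 407 and 347. Of the 8 macrophage-like clusters with 10 or more cells in each of these 4 rats, these among them, it overlapped in 4 and was lower in both old rats in the other 4, for example at 622 and 564 against 706 and 847 in the cluster led by Ltc4s, Ccl24 and Aif1. HFHF-old replicate 2 had 69 macrophage-like cells, in which the macrophage markers summed to 9160 CPM against 20800 to 37800 in the other rats. In fibroblast-like cells S100a6, the leading member there, stood at 2307 and 3577, 2559 and 3735, and 2163 and 2298 CPM in young, old and HFHF-old replicates. It was below in both HFHF-old rats, as were 18.4% of genes (18.7% were above), with a log2 fold change of -0.54 ± 0.40 (adjusted p = 0.859). It lay apart within the Gfpt2-led cluster (3220 and 4620 in the old against 2340 and 2530) and the Clec3b-led one (3160 and 4730 against 1730 and 2160), and overlapped in the Mgp-led one (1820 and 2390 against 1810 and 1830), which held 741 of 1466 and 819 of 1867 cells of the old and 568 of 3056 and 272 of 1122 of the HFHF-old replicates. S100a4 was above the young rats in both old rats, at 129 and 199 against 77.8 and 103 CPM, as were 20.2% of genes, with 17.3% below (0.87 ± 0.59, adjusted p = 0.947). In the Gfpt2-led cluster it stood at 45.6 and 30.1 in the young and 139 and 162 in the old, while it overlapped in the Clec3b-led cluster (177 and 145 against 167 and 277) and in the Mgp-led one (102 and 148 against 108 and 140). In B-like cells 0 of 4 members separated the groups, where 29.2 and 14% of genes were above and below in HFHF-old and 13.3 and 17.5% in old rats.

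**Figure D5:**
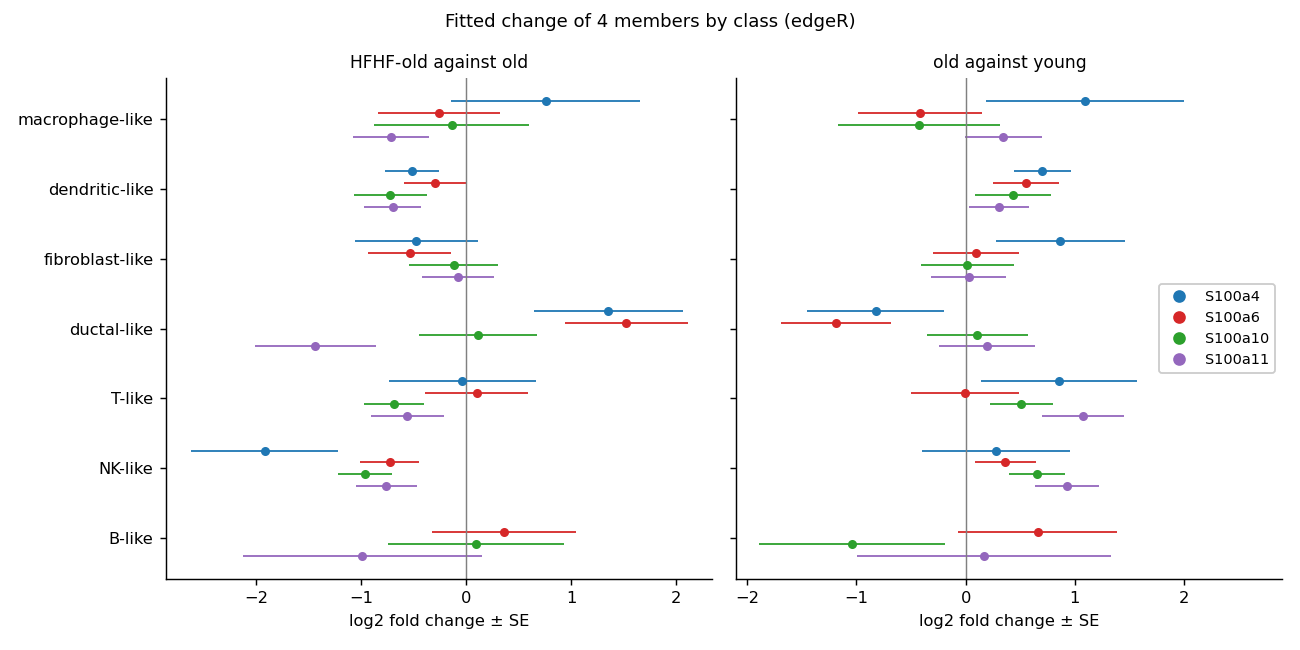
Fitted log2 fold changes with standard errors from edgeR for S100a4, S100a6, S100a10 and S100a11 in 7 classes, HFHF-old against old on the left and old against young on the right. S100a11 lies left of 0 in all 7 classes on the left and right of 0 in all 7 on the right. None of the changes was called, and S100a4 did not pass the filter on low counts in B-like cells.

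Partners and receptors of the S100 proteins were measured in the same classes. Of the 10 other listed S100 genes 9 were in the files, and they were mostly low: S100a13 was found in every class with medians of 14.1 to 103 CPM, S100a16 in fibroblast-like (142) and ductal-like cells (112), and S100a1 in ductal-like cells (45.3). S100g, the vitamin D dependent calbindin of absorptive intestine, had a median of 50.7 in ductal-like cells and ranged there from 0 to 5330. Of the receptors of calprotectin, Ager was at a median of 1.13 CPM or less in every class, and Tlr4 was highest in macrophage-like cells at 50.7. Its co-receptor Cd14 stood at 384 in monocyte-like and 212 in macrophage-like cells. Anxa1, the partner of S100a11, was highest in neutrophil-like (7070) and fibroblast-like cells (4440), and Anxa2, the partner of S100a10, in neutrophil-like (1210) and monocyte-like cells (789). Among alarmin genes Camp (8000), Il1b (5790), Ngp (2770) and Mmp8 (2700) were highest in the neutrophil-like cells of HFHF-old replicate 1, Il33 in fibroblast-like (655) and Lcn2 in ductal-like cells (458).

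Few genes of these lists passed the test between groups. In HFHF-old against old 0 of 27 tests of other S100 genes, 0 of 34 of receptors, 0 of 56 of annexins and other partners and 0 of 24 of granule and alarmin genes passed (3, 1, 3 and 7 at an unadjusted p under 0.05). Their medians of the log2 fold change lay between -0.82 and 0.28, -0.39 and 0.22, -0.36 and 0.39, and -2.19 and 0.71 over the classes, where the median over all genes tested lay between -0.03 and 0.04. The -2.19 was of ductal-like cells, with 1 HFHF-old rat in which 94.8% of the class was estimated as free RNA. That estimate can be too high, and its part in the -2.19 was not tested. Of 71 tests of NF-kB response genes 1 passed and 18 had an unadjusted p under 0.05, and their medians lay between 0.21 and 1.48. Of all genes in these fits 8.12% had an unadjusted p under 0.05 (4.14 to 13.8% by class). The called gene was the neutrophil chemoattractant Cxcl1 in monocyte-like cells, with 206 and 0 CPM in the old replicates and 1060 in HFHF-old replicate 1 (log2 fold change 3.18 ± 0.85, adjusted p = 0.0212), a class in which HFHF-old had 1 rat and 1.18% of all genes were called. Of its cells 101 of 120 lay in the cluster led by Olr1, Cxcl2 and Il1b, while 17 of 19 and 18 of 18 cells of the old rats lay in the Fcnb-led cluster, so the call and the median of 1.48, which is of the same class, compare different clusters. In old against young 0 of 26, 30, 49, 22 and 63 tests of the 5 lists passed, with 3, 0, 3, 6 and 7 at an unadjusted p under 0.05, against 5.82% of all genes (3.33 to 8.9%).

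Over 74 sums of 1 class in 1 rat with 20 or more cells and 9353 genes, the pattern most like S100a10 was that of Anxa2 (Pearson r = 0.865), followed by S100a11 (0.854) and Tagln2 (0.820). That of S100a11 was most like S100a10 (0.854), Tagln2 (0.834) and Zyx (0.818). S100a4 was most like Leprotl1 (0.795), Fgl2 (0.789) and Ifitm1 (0.788), and S100a6 was like Eya2 (0.831) and Ahnak (0.794). For S100a8 the nearest genes were S100a9 (0.775), Gif (0.592) and Apoc4 (0.512), and for S100a9 they were Adtrp (0.501), Gif (0.489) and Apoc4 (0.444). No neutrophil-like sum had 20 cells, so these values rest on levels near 0 and on single higher sums. S100a9 reached 100.2 CPM in smooth muscle-like cells of old replicate 1, on 14 UMIs. In acinar-like cells of old replicate 2 it reached 86.3, where 1 barcode held all 144 S100a9 and all 57 S100a8 UMIs. S100a8 itself was too low to be among the genes ranked. Sums of 1 rat share a library and its depth, and the correlations are descriptions only.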

How the data were processed

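Single-cell suspensions of islet preparations from 6 male Wistar rats (young, old and HFHF-old, 2 each) were profiled with 10x 3' chemistry. The deposited values are UMI counts per gene and barcode that the authors made with Cell Ranger (5.0.0 in the file headers) on Rnor_6.0, per the submitters' processing notes. The study's methods name another Cell Ranger version, and the annotation release is not given in the sources used here. Barcodes with under 200 genes, over 25% mitochondrial UMIs or in the top 1% of gene number were left out here. Cells were clustered over all libraries with scanpy 1.11.5 and leidenalg 0.10.2 (2000 variable genes, 10 components, 15 neighbours, resolution 1; 20 components where a cluster was divided again), with the S100 genes held out, and clusters were named from fixed marker lists. The rules for naming clusters were set after the clusters were seen. The 6 genes and the lists were chosen with earlier results of these data known. The genes to name were the 6 members, the called genes and up to 3 genes of high level per list and class, and the 3 genes most like each member, of which 1 is not reported here. Receptor, partner and intestinal genes beyond these were chosen after their values were seen. The Il1rl1 Gata3 cluster was likewise chosen as a class to test after its values were seen.

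UMI counts were summed per class and rat (10 or more cells) and tested with edgeR 4.0.16 (TMM, filter on low counts, quasi-likelihood, Benjamini-Hochberg adjustment over all genes of a fit), with all rats of a class in 1 fit. The labels give each library as a separate rat, and with 2 rats a group the p-values measure the spread between these few rats. Each statistical script was tested on simulated data. In counts simulated for macrophage-like and fibroblast-like cells, edgeR called 0.5 and 0.0% of the genes changed by a log2 fold of 1. At a log2 fold of 2 it called 54.5 and 62.5% of them, with 27 and 14 false calls. A log2 fold change near 1 would thus mostly go uncalled. Neighbouring classes were compared by exact sign-flip permutation over rats on log2 of CPM plus 1. Free RNA was estimated per class and rat as described with the results. Doublets were not removed, and leaving out 8113 predicted doublets was an alternative, beside DESeq2 1.42.0, other filters and scalings, a marker gate, free RNA subtraction and each rat left out.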

Additional observations from a re-analysis of the deposited data

Results flagged for a closer look

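Fitted changes in old against young pointed in opposite directions in some classes, in that both old rats lay above both young rats in one class and below in another. S100a6 had a log2 fold change of 0.36 in NK-like and -1.19 in ductal-like cells. Of all genes 10.0% lay above in NK-like and 12.3% below in ductal-like cells. In ductal-like cells S100a6 passed the level expected from free RNA in 3 of 5 rats only. S100a10 had a log2 fold change of 0.43 in dendritic-like, 0.51 in T-like and 0.65 in NK-like cells and of -0.42 in macrophage-like cells. Of all genes 6.68% lay above in dendritic-like, 15.8% in T-like and 10.0% in NK-like cells, and 27.6% below in macrophage-like cells. None of these changes was called, and the differences between classes were not tested. The share of genes that went opposite ways in such classes is not reported here. The macrophage-like cells of old and young rats lay mostly in different clusters, and S100a10 overlapped between the groups within the 2 clusters that held most cells of the old rats, and in 4 of the 8 clusters that could be compared.

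Some clusters without a cell type name passed the highest level of any rat in the classes of the main comparison other than neutrophil-like (48.5 CPM for S100a8, 6.9 for S100a9) or in all its classes (3735.5 for S100a6). Acinar-like cells of old replicate 2 (86.3) and smooth muscle-like cells of 1 rat (100.2) also passed that S100a9 level. A cluster of 1647 barcodes, all from old replicate 2, with a median of 701 UMIs and led by Prap1, Ctsj and Sct, held S100a8 at 57.6, S100a9 at 200.8 and S100a6 at 11204.8 CPM. For S100a8 and S100a9 this rests mainly on 2 barcodes with 11 and 36 S100a8 UMIs and 34 and 198 S100a9 UMIs, of 84 and 295 in all unnamed clusters of that rat. A cluster of 188 barcodes led by the smooth muscle genes Actg2 and Tagln, also from old replicate 2 alone, held S100a6 at 11796.8. S100a9 stood at 56.4 in a cluster of 110 barcodes, where 1 barcode held 86 S100a9 UMIs. In a cluster of 43 barcodes, below the minimum of 50 set for this comparison, it stood at 83.2, where 1 barcode held 77 S100a9 UMIs. It stood at 9.0 in a cluster of 1467 barcodes with acinar and macrophage genes and at 7.7 in one of 187 barcodes. Groups of 2 rats are too small to test for a rat that stands apart.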

How the results depend on the processing

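Neutrophil-like cells were few, old replicate 2 was shallow, and HFHF-old replicate 2 had few macrophage-like, ductal-like and neutrophil-like cells. Absence of a call does not show equal levels. Calls of members in HFHF-old against old rose from 0 to 1 with DESeq2 (S100a10 in NK-like cells, adjusted p = 0.00494), to 1 without a filter on low counts (S100a4 in NK-like cells, adjusted p = 7.91e-06) and to 2 after free RNA was subtracted (S100a11 and S100a10 in ductal-like cells, with 1 HFHF-old rat). In old against young they rose to 1 without that filter (S100a11 in T-like cells, edgeR, adjusted p = 0.0426). The share of all genes called without the filter or after free RNA subtraction is not reported here. These calls thus have no background to be read against. The change of S100a4 in NK-like cells rested on old replicate 2 and became -0.17 without that rat in the main setting. With each rat left out in turn the calls of members ranged from 0 to 0. In ductal-like cells the fitted change of S100a6 in HFHF-old against old turned from 1.52 to -7.27 after free RNA subtraction, where 94.8% of the class was estimated as free in the HFHF-old rat, and that of S100a11 reached -12.81. In the Il1rl1 Gata3 cluster DESeq2 called S100a11 in both comparisons and S100a6 in old against young, and without the filter S100a11 was called in both and S100a10 in HFHF-old against old. This cluster was picked after its values were seen. The share of all genes called in it under these settings is not reported here, so these calls have no background to be read against. Of the levels, 10 of 54 moved beyond their spread after free RNA subtraction and 14 of 48 with the marker gate. DESeq2 called more genes than edgeR in most fits over all genes, for example 117 against 0 in NK-like and 122 against 0 in fibroblast-like cells for HFHF-old against old, but fewer in monocyte-like cells, with 20 against 56. The causes of these differences were not tested.

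With the replicate block 0 members were called in HFHF-old against old and 0 in old against young. The replicate numbers only name the rats, and the correlation of same-numbered deviations ranged from -0.18 to 0.402 over the classes and group pairs checked.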

Other observations

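Classes outside the main comparison also carried S100 genes. Mesothelial-like cells (103 cells in 4 rats) held S100a6 at a median of 3215 CPM (2915 to 4367) and S100a10 at 1160 (859 to 2309). Smooth muscle-like cells (899 cells in 5 rats) held S100a4 at 286 (209 to 493), with S100a9 at 0 to 100.2 between rats, and endothelial-like cells (1645 cells) S100a6 at 414 (283 to 643). Plasma-like cells (295 cells in 5 rats) were lowest among these classes in S100a4, at 15.9, and in S100a6, at 13.3, and held no UMI of S100a8 or S100a9.

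Outside the neutrophil-like class 7 barcodes held 10 or more S100a8 UMIs. In old replicate 2, 1 acinar-like barcode held 57 S100a8 and 144 S100a9 UMIs among 3022. These barcodes were kept in their classes.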
